A study of Mus musculus with 7 samples.

Results

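The genes described here are the MHC class I heavy chain genes H2-K1, H2-D1, H2-K2, H2-Q4, H2-Q6, H2-Q7, H2-Q8 and H2-T23, of which H2-K2 is annotated as a pseudogene, and B2m, which encodes the common light chain, beta-2 microglobulin. They were chosen by gene symbol, though with earlier results of these data known, and all 9 were found among the 23329 symbols of the count table. RNA was measured in Beta-TC6, an insulin-secreting line from a mouse pancreatic beta-cell tumour, in 3 libraries of wild-type cells given the inflammatory cytokine IL1B (interleukin-1 beta) and 4 libraries of wild-type cells given vehicle. Cells of both groups had been synchronised for 1 h with forskolin, an activator of adenylyl cyclase, at 10 µM, and the line was grown with 15% fetal bovine serum. The dose and duration of IL1B and the H-2 haplotype of the line (its set of class I alleles) are not known from the labels, and Beta-TC6 is a single tumour line. Whether libraries came from separate cultures is not stated, and the p-values rest on the spread between libraries, which may be technical.

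MHC class I molecules display short peptides from inside the cell to CD8 T cells. Each is a heavy chain paired with beta-2 microglobulin and loaded with peptide in the endoplasmic reticulum, where the transporter TAP delivers peptides cut by the proteasome and tapasin helps to select them. The classical heavy chains of the mouse, such as H2-K1 and H2-D1, vary greatly between strains and present to most CD8 T cells, whereas the non-classical chains of the Q and T regions vary less and include Qa-2 (encoded by H2-Q7 and its close relatives) and Qa-1 (encoded by H2-T23), a ligand of receptors on natural killer cells. Class I on beta cells is of interest because CD8 T cells kill beta cells in autoimmune diabetes. NF-kB, which interleukin-1 receptors switch on, and the interferon-regulated factors are textbook activators of class I promoters.

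The heavy chain genes lie on mouse chromosome 17 and B2m on chromosome 2. In the GENCODE M21 annotation of GRCm38, the assembly also called mm10, H2-K1 spans 33996017 to 34000347 on the minus strand and H2-D1 spans 35262730 to 35267499 on the plus strand. H2-K2, the transcribed pseudogene, lies at 33974659 to 33978827. H2-Q4 (35379617 to 35385290), H2-Q6 (35424850 to 35430055) and H2-Q7 (35439155 to 35443773) stand in a row, H2-T23 lies at 36029773 to 36032855, and B2m at 122147686 to 122153083. H2-Q8 has no gene model in that annotation and so no coordinates, length or sequence are given for it.

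Promoter sequence is shown for the 7 members that the RefSeq table holds (build GRCm38.p6), because NF-kB and interferon response elements in this stretch are the known inducible part of class I promoters. The pieces come from chr17:34000414-34000473 (minus strand) for H2-K1, chr17:35262923-35262952 (plus) for H2-D1, chr17:35379443-35379472 (plus) for H2-Q4, chr17:35424662-35424721 (plus) for H2-Q6, chr17:35439007-35439065 (plus) for H2-Q7, chr17:36032806-36032835 (minus) for H2-T23 and chr2:122147533-122147585 (plus) for B2m. Each is read 5′ to 3′ on the strand of its gene, and capitals mark letters that match a motif described after the sequences. The pieces of H2-D1, H2-Q4 and H2-T23 are kept to 30 bases because an exon of a GENCODE model covers them.
H2-K1: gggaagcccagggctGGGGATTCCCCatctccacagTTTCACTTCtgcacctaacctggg
H2-D1: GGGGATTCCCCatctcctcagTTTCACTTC
H2-Q4: GGGGATTTCCCatctccccagTTTCACTTC
H2-Q6: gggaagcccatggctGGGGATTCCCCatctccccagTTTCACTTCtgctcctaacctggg
H2-Q7: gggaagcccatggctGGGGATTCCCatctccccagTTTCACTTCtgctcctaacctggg
H2-T23: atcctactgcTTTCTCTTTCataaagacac
B2m: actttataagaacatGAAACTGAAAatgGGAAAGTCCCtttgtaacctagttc

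Motifs were searched on both strands in the 250 bases before the RefSeq start of each gene. A kB-type motif (GGGNN followed directly by TTCCC) was found in H2-K1, H2-D1, H2-Q4, H2-Q6 and H2-Q7, and in 1.75% of the 27025 genes with a promoter in the table. The interferon response motif GAANNGAAA, read here on the opposite strand, was found in the same 5 members and in 7.30% of genes. In these 5 promoters the kB-type motif stood farther from the start than the interferon motif, at 111 to 102 bases before the start in H2-K1 and 171 to 162 in H2-D1, with the interferon motif at 90 to 82 and 150 to 142. Neither was found in H2-T23 or B2m. The promoter of B2m held the broader NF-kB consensus decamer, found in 8.23% of genes and overlapping the kB-type motif in the 5 heavy chain promoters, and a longer interferon motif (GAAANN followed directly by GAAA), found in 3.46%. H2-T23 held this longer motif and no match to the decamer. These last 2 motifs were added after the planned ones had been searched. A match is a run of letters and not a shown binding site.

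The libraries held 6007723 to 6969745 counts in the IL1B group and 5335607 to 7513934 in the vehicle group. The numbers given to the IL1B libraries are those of the count table, since the labels number them differently. The second library of each group stood apart. The chi-square per degree of freedom against the other libraries of its group was 2.87 and 4.20 for the second IL1B library, against 1.69 between the other IL1B libraries, and 3.82 to 4.87 for the second vehicle library, against 1.52 to 1.60 among the other vehicle libraries. Over 11286 genes, the Spearman rho between transcript length and the deviation from the vehicle mean was -0.54 in the second vehicle library (a description across genes), against 0.22 to 0.30 in the other vehicle libraries. Deviations from a group mean cancel within each gene, so a trend in 1 library pushes the others of its group the opposite way. The positive values are therefore no separate finding. In the IL1B libraries the deviation from the IL1B mean gave a rho of -0.02 to 0.02, the second library included. Beta-cell markers were abundant: Ins2 averaged 22372 ± 715 CPM with IL1B and 21183 ± 1599 CPM with vehicle (SD, n = 3 and 4). CPM here divides by the TMM-scaled total of the tested genes, per 1e6.

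IL1B raised the transcripts of 7 of the 8 heavy chain genes, and neither B2m nor H2-T23 passed the test. The increases ran from 1.39-fold for H2-D1 to 6.73-fold for H2-K2, and the 2 abundant classical genes had smaller fold changes than H2-Q4, H2-Q6, H2-Q8 and H2-K2. All 9 genes passed the low-count filter, and 7 were called higher and none lower, by edgeR's quasi-likelihood test with Benjamini-Hochberg adjustment over 12480 genes at a threshold of 0.05. Over all tested genes, 7.76% were called higher and 3.25% lower. None of the 9 was called lower by DESeq2 or limma-voom, and none had a negative fold change in the fit. The median log2 fold change was 0.67 over the 9 genes and -0.0087 over all tested genes. Groups did not overlap, with IL1B higher, in the same 7 genes, against 12.1% of all tested genes. H2-K2 is in these counts and in the median, though it passed the filter through the IL1B libraries and could only have been called higher. Without the second library of each group 8 of the 9 were called higher, B2m being the addition. In that fit the log2 fold changes were 0.76 for H2-K1, 0.51 for H2-D1, 3.03 for H2-K2, 1.04 for H2-Q4, 1.90 for H2-Q6 and 2.07 for H2-Q8, all called higher by edgeR, and 0.46 for H2-T23 (edgeR adjusted p = 0.133).

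H2-K1, a classical heavy chain, was at 411, 390.5 and 395 CPM in the 3 IL1B libraries, against 231, 285, 236 and 248 CPM in the 4 vehicle libraries. Every IL1B library was above every vehicle library, and the second vehicle library was the highest of its group. The means were 399 ± 10.5 CPM with IL1B and 249.8 ± 24.3 CPM with vehicle (SD, n = 3 and 4), a 1.60-fold increase (by 0.67 on the log2 scale, with SE 0.07 and edgeR adjusted p = 3.8e-07). H2-D1, the other classical heavy chain and the most abundant member in counts, was at 488, 484 and 476 CPM in IL1B libraries, against 319, 371, 349 and 351 CPM in vehicle libraries. The groups did not overlap, and H2-D1 rose 1.39-fold (by 0.47 on the log2 scale, with SE 0.06 and edgeR adjusted p = 5.7e-06).

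H2-K2, the pseudogene next to H2-K1, had the largest fold change of the 9 genes and the lowest level with vehicle. It had 78, 54 and 48 counts in IL1B libraries, against 7, 13, 9 and 6 counts in vehicle libraries. As CPM its means were 9.48 ± 1.69 with IL1B and 1.41 ± 0.500 with vehicle, a 6.73-fold increase (by 2.75 on the log2 scale, with SE 0.25 and edgeR adjusted p = 1.3e-07). The filter asks for 1.64 counts per 1e6 of a library's total in 3 libraries, which H2-K2 reached in all 3 IL1B libraries and in 1 vehicle library. Since the IL1B libraries decided that it passed, a lower level with IL1B could not have been called.

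Among the Q-region genes, H2-Q4 was at 75.3, 85.9 and 88.7 CPM in IL1B libraries, against 36.9, 43.2, 44.1 and 39.4 CPM in vehicle libraries. It rose 2.04-fold with no overlap (by 1.03 on the log2 scale, with SE 0.08 and edgeR adjusted p = 2.5e-08). In the annotation 377 bases of its exons are overlapped by Gm11131 on the other strand, which the count table does not list under that name, and the labels do not state whether strand was used in counting. H2-Q6 was at 24.2, 33.9 and 28.3 CPM in IL1B libraries, against 6.71, 6.73, 6.88 and 7.43 CPM in vehicle libraries. It rose 4.14-fold (by 2.05 on the log2 scale, with SE 0.14 and edgeR adjusted p = 1.3e-09), the lowest adjusted p of the 9 genes. H2-Q8 was at 12.5, 18 and 13.3 CPM in IL1B libraries, against 3.55, 4.23, 3.0 and 2.41 CPM in vehicle libraries, a 4.33-fold increase (by 2.11 on the log2 scale, with SE 0.19 and edgeR adjusted p = 1.4e-07). For H2-Q6, H2-Q7 and H2-Q8 the second IL1B library was the highest of its group.

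H2-Q7, which encodes Qa-2, had the weakest call. It was at 31.8, 45.9 and 33.9 CPM in IL1B libraries, against 23.6, 29.8, 30.1 and 19.5 CPM in vehicle libraries. The groups did not overlap, with 31.8 CPM in the lowest IL1B library and 30.1 CPM in the highest vehicle library. It rose 1.44-fold (by 0.52 on the log2 scale, with SE 0.14 and edgeR adjusted p = 0.0168), and the call was lost without the second IL1B library (log2 fold change 0.35, edgeR adjusted p = 0.151), without the first vehicle library (0.48, adjusted p = 0.0704) or without the fourth (0.42, adjusted p = 0.0610). It passed with the second library of both groups left out (0.43, adjusted p = 0.0128).

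H2-T23 and B2m did not pass the test. H2-T23 was at 9.18, 6.15 and 10.3 CPM in IL1B libraries, against 6.06, 8.30, 6.17 and 9.28 CPM in vehicle libraries. Its groups overlapped, and its log2 fold change of 0.21 (SE 0.20 and adjusted p = 0.586 by edgeR) had a 95% interval from -0.20 to 0.63, so a 1.5-fold rise was inside it at this depth. B2m was at 116, 88.9 and 108 CPM in IL1B libraries, against 94.1, 112, 101 and 101 CPM in vehicle libraries. The second IL1B library was the lowest of all 7 and the second vehicle library the second highest. For B2m the log2 difference was 0.04 (SE 0.08 and adjusted p = 0.836 by edgeR), with a 95% interval from -0.14 to 0.22, that is 0.911-fold to 1.16-fold. Without the second library of each group B2m passed as higher (log2 fold change 0.20, edgeR adjusted p = 0.0226), whereas without the second IL1B library alone (0.14, adjusted p = 0.338) or the second vehicle library alone (0.09, adjusted p = 0.497) it did not.

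**Figure D1:**
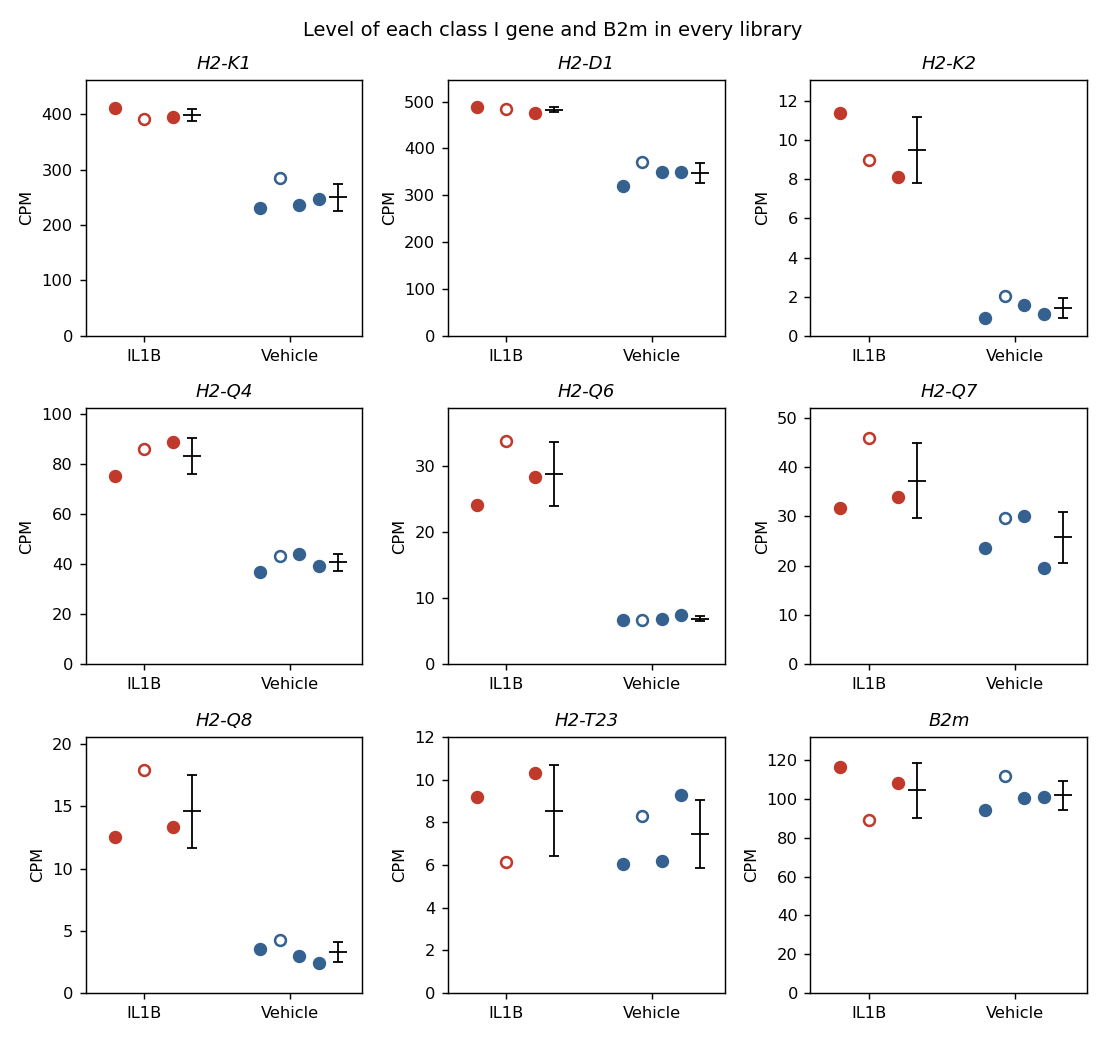
CPM of each gene (vertical axes from 0, a scale per gene) in the 3 IL1B libraries, left, and the 4 vehicle libraries, right. Points are libraries, open points the second library of each group, and bars the mean and SD. In H2-K1, at 390.5 to 411 CPM with IL1B and 231 to 285 CPM with vehicle, the groups are apart, while in B2m and H2-T23 they overlap.

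**Figure D2:**
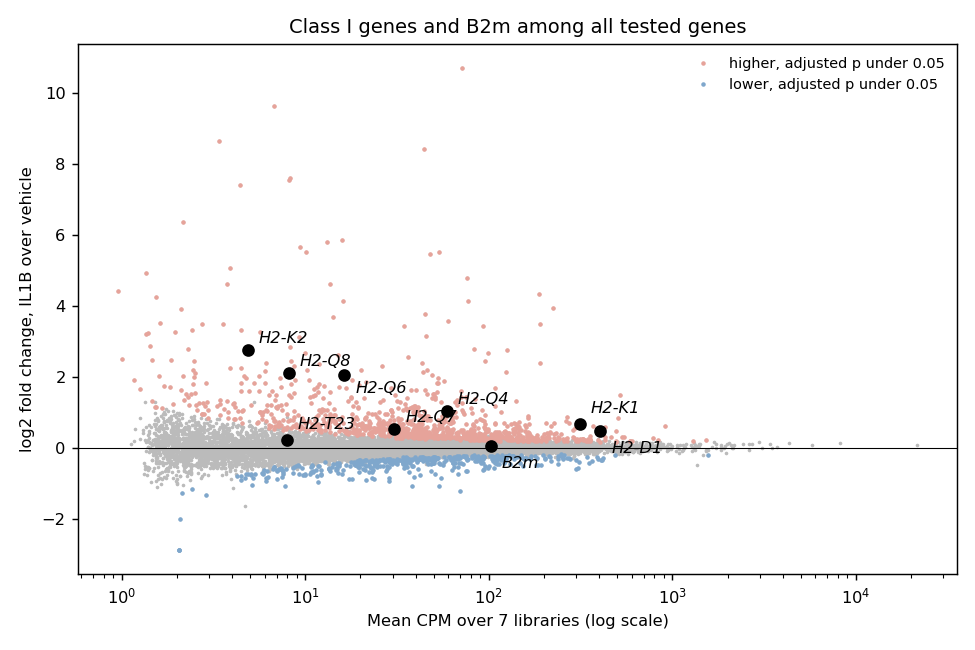
Log2 fold change of IL1B over vehicle against mean CPM over the 7 libraries (log scale) for all 12480 tested genes, with the 8 heavy chain genes and B2m in black. Coloured points are genes called higher or lower. H2-K2 lies highest of the 9 at 2.75 and B2m lowest at 0.04.

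Summing the 8 heavy chain genes gives a level that does not depend on how reads were divided among them. Reads that also fit genes outside the 8 may still affect the sum, and their handling is not stated. The sum was 1063, 1073 and 1054 CPM in IL1B libraries, against 628, 750.1, 677 and 677 CPM in vehicle libraries. The IL1B libraries lay within a narrow band, all above the vehicle libraries, and the ratio of the group means was 1.56. H2-K1 and H2-D1 together averaged 881 ± 14.9 CPM with IL1B and 597 ± 43.8 CPM with vehicle, a ratio of 1.48. The other 6 heavy chain genes together averaged 182 ± 17.2 CPM with IL1B and 85.7 ± 8.55 CPM with vehicle, a ratio of 2.12. The sums were formed from genes with known results and are given with no test.

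The make-up of the heavy chain counts is described with no test. H2-D1 took 45.4% ± 0.451 of them with IL1B and 50.9% ± 1.05 with vehicle (SD, n = 3 and 4). H2-K1 took 37.5% ± 1.12 with IL1B and 36.5% ± 1.28 with vehicle, and H2-Q4 7.84% ± 0.681 with IL1B and 5.99% ± 0.352 with vehicle. H2-Q6 took 2.71% ± 0.443 with IL1B and 1.02% ± 0.0880 with vehicle. These shares are of counts, not of molecules, since the transcripts differ in length.

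Per kilobase of transcript the order of the members shifted. With IL1B, H2-K1 had 246 ± 6.49 CPM per kilobase and H2-D1 229.6 ± 2.79, and every IL1B library was higher for H2-K1. With vehicle, H2-D1 had 152 to 176 CPM per kilobase and H2-K1 143 to 176, and the ranges overlapped. Within each vehicle library H2-D1 was the higher, by as little as 176.5 against 175.9 CPM per kilobase in the second one. B2m had 122 ± 16.4 CPM per kilobase with IL1B and 118 ± 8.52 with vehicle, below both classical heavy chains in each group. H2-Q4 followed with 46.5 ± 3.94 with IL1B and 22.8 ± 1.88 with vehicle, then H2-Q7 with 24.4 ± 4.99 with IL1B and 16.9 ± 3.37 with vehicle. H2-Q6 had 13.8 ± 2.34 CPM per kilobase with IL1B and 3.33 ± 0.160 with vehicle. H2-T23, at 5.80 ± 1.46 with IL1B and 5.06 ± 1.09 with vehicle, stood above H2-Q6 with vehicle and below it with IL1B. H2-K2, at 6.05 ± 1.08 with IL1B and 0.903 ± 0.319 with vehicle, was lowest with vehicle and did not differ from H2-T23 beyond the spread with IL1B. The lengths are those of the longest GENCODE transcript without a retained intron, and the transcripts these cells make may be shorter. In counts H2-D1 was above H2-K1 in every library, with a ratio of H2-K1 to H2-D1 of 0.676 to 0.842. The order of H2-K1 and H2-D1 per kilobase therefore rests on the lengths used, 1619 bases for H2-K1 and 2102 bases for H2-D1.

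Class I heavy chain genes are paralogs, and the handling of reads that fit several of them is not stated in the labels. H2-K1 and H2-D1 were 88.2% identical over 1513 aligned bases, with a longest identical run of 91 bases. H2-Q6 and H2-Q7 were the closest pair, 94.6% identical over 1030 bases, with an identical run of 265 bases. Cut into windows of 75 bases, 98.4% of H2-K1, 92.9% of H2-D1 and 94.0% of H2-K2 occurred in no other annotated gene. The share was 86.9% for H2-T23, 78.9% for H2-Q6, and 78.3% for both H2-Q4 and H2-Q7, while B2m shared none. With windows of 50 bases the shares were 91.2% for H2-K1, 60.8% for H2-Q4 and 65.0% for H2-Q6, and with 100 bases 86.1% for H2-Q4 and 87.0% for H2-Q6, while H2-K1 shared no window of that length. No window of 75 bases was shared by H2-K1 and H2-K2. The sequences compared are those of the C57BL/6J reference, and the values for H2-Q6 and H2-Q7 leave out H2-Q8 and H2-Q9, which have no model in the annotation.

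**Figure D3:**
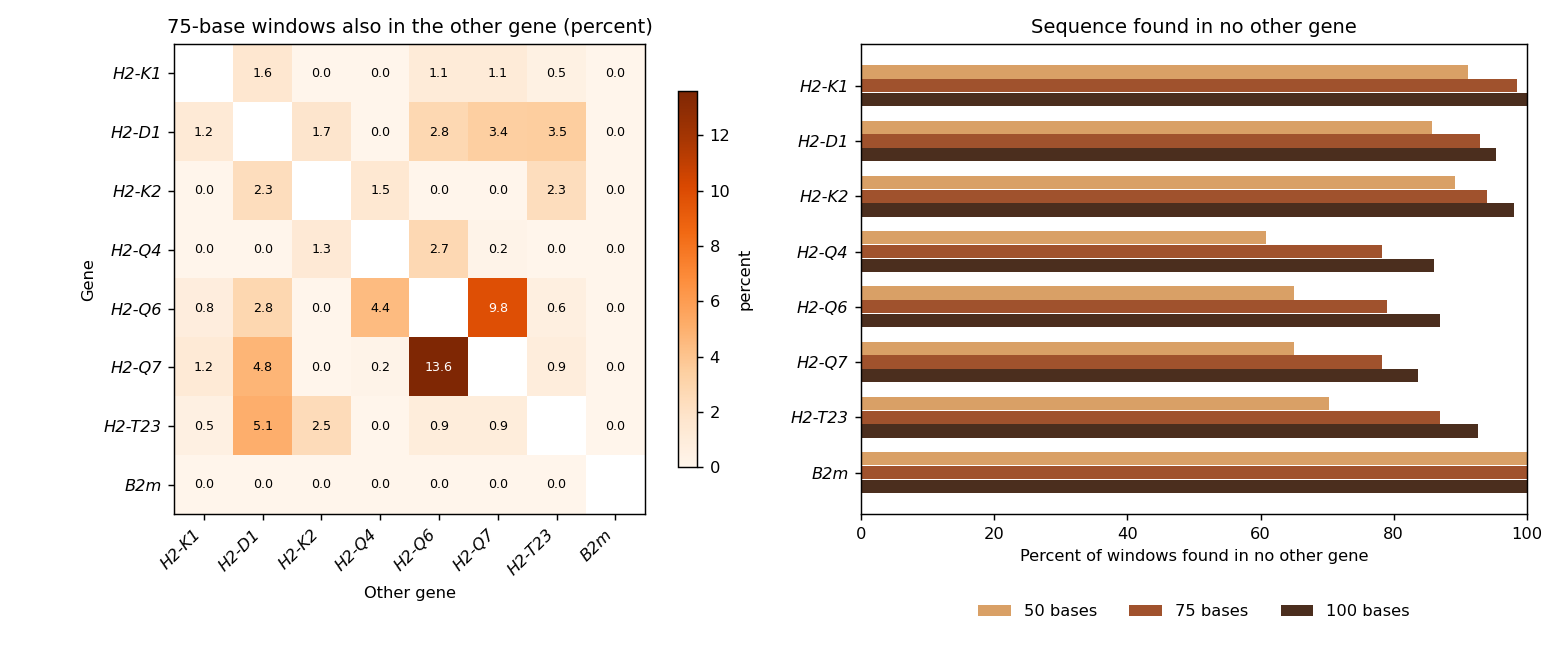
Left, the percent of each gene's 75-base windows (rows) that also occur in another member (columns), with 13.6% of H2-Q7 windows found in H2-Q6 as the highest value. Right, the percent of windows of 50, 75 and 100 bases found in no other annotated gene. B2m is at 100 for each length, and H2-Q4, H2-Q6 and H2-Q7 have the lowest shares.

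The counts of H2-Q9, a near relative of H2-Q7 and not among the 9 genes, are given beside those of H2-Q7 because the 2 names share reference sequence. H2-Q9 had 76, 27 and 48 counts in IL1B libraries, against 31, 17, 0 and 34 counts in vehicle libraries. Its RefSeq transcript is linked by GENCODE to an H2-Q7 model. Vehicle library 3 had no count, where 3 counts would be 0.529 CPM, while H2-Q7 had 171 counts there. H2-Q7 and H2-Q9 summed, averaged 45.1 ± 4.61 CPM with IL1B and 29.0 ± 2.89 CPM with vehicle, a ratio of 1.55. H2-Q6 and H2-Q8 summed averaged 43.4 ± 7.72 CPM with IL1B and 10.2 ± 0.521 CPM with vehicle, a ratio of 4.24. Both sums were chosen after the values were seen.

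Ratios of counts within a library are free of library scaling. A set of 5, chosen with the fold changes known, was compared over the 35 ways of dividing the libraries into 3 and 4. The adjustment over the 5 does not cover that choice, so the p-values describe these ratios and add no support to the fold changes. H2-K1 over B2m was 3.53, 4.39 and 3.65 in IL1B libraries, against 2.46, 2.55, 2.34 and 2.45 in vehicle libraries. Every IL1B library was above every vehicle library. The fold between groups, taken from the mean log2 ratios here and for the other ratios, was 1.57. An exact permutation test on log2 ratios, two-sided, gave p = 0.0286, the smallest these libraries can give, and 0.0476 adjusted over the 5 ratios. H2-D1 over B2m was 4.19, 5.44 and 4.40 in IL1B libraries, against 3.39, 3.32, 3.47 and 3.48 in vehicle libraries, and was 1.36-fold higher (exact p = 0.0286, adjusted 0.0476). H2-K1 over H2-D1 was 0.842, 0.807 and 0.830 in IL1B libraries, against 0.724, 0.768, 0.676 and 0.706 in vehicle libraries. These did not overlap, yet the 1.15-fold difference missed the threshold (exact p = 0.0571, adjusted 0.0714).

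H2-Q6 over H2-Q7 averaged 0.779 ± 0.0506 in IL1B libraries and 0.280 ± 0.0726 in vehicle libraries. From the mean log2 ratios it was 2.84-fold higher with IL1B (exact permutation p = 0.0286, adjusted 0.0476). H2-Q6 and H2-Q7 were the closest pair in sequence among the members compared. Their ratio may therefore depend on how reads that fit both were handled, which is not stated. H2-Q8 over H2-Q6 averaged 0.506 ± 0.0314 in IL1B libraries and 0.480 ± 0.129 in vehicle libraries (exact permutation p = 0.714, adjusted 0.714). The ratios were chosen with the fold changes known, and the test of a ratio carries the same second libraries as the fits: the second IL1B library gave the highest ratio of both classical chains to B2m.

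**Figure D4:**
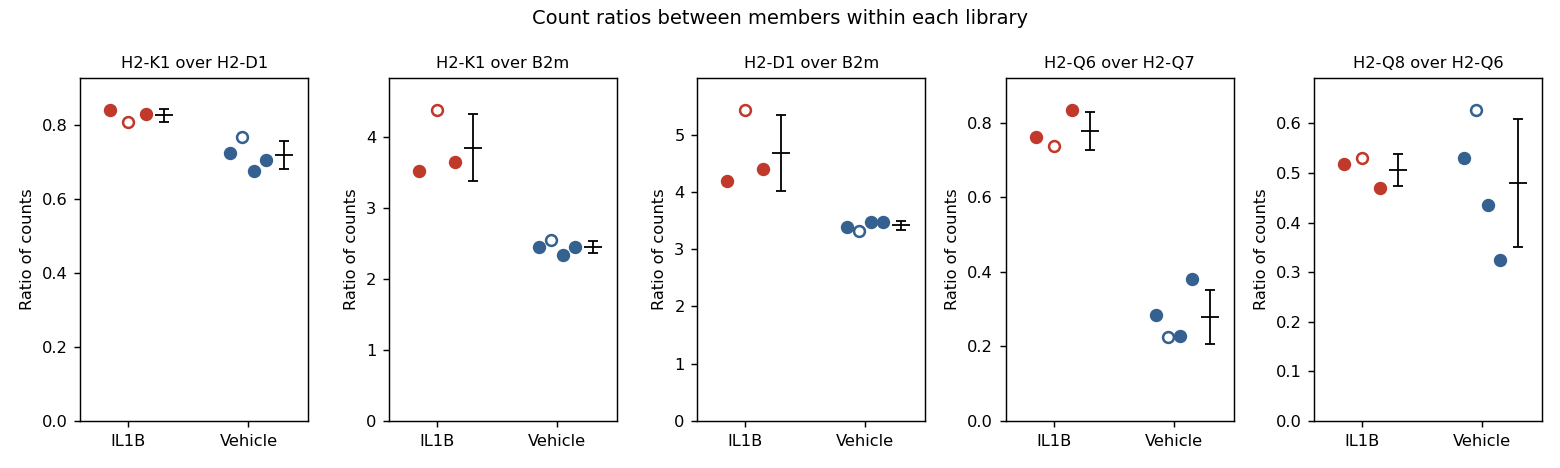
Count ratios between pairs of members in each library (vertical axes from 0), IL1B left and vehicle right, with mean and SD and the second libraries as open points. H2-K1 over B2m is 3.53 to 4.39 with IL1B and 2.34 to 2.55 with vehicle, and H2-Q8 over H2-Q6 overlaps.

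The genes that supply and load class I peptides moved in part. Of 18 such genes, all tested, 5 rose and none fell by edgeR, with a median log2 fold change of 0.13. Over all tested genes 7.76% were called higher and 3.25% lower, and the median was -0.0087. At an unadjusted edgeR p under 0.05, 1 of the 18 was lower, and DESeq2 and limma-voom called none of them lower. Tapbp, which encodes tapasin, was at 216, 215 and 229 CPM in IL1B libraries, against 118, 125, 124 and 120.3 CPM in vehicle libraries, and rose 1.80-fold (edgeR adjusted p = 1.7e-09). Tapbpl, which encodes the peptide editor TAPBPR, rose 1.64-fold, and Psmb10, a catalytic subunit of the immunoproteasome, 1.93-fold. Psme3 and Psme2, subunits of proteasome activators, rose 1.23-fold and 1.20-fold; Psme2, named outside the naming rule to complete the 5, lost its call without any 1 of 6 libraries, the second vehicle library being the exception (edgeR adjusted p 0.0637 to 0.0926). Tap1, a subunit of the peptide transporter, was at 11.6 to 12.5 CPM with IL1B and 6.98 to 13.5 CPM with vehicle, and Psmb8, another immunoproteasome subunit, at 12.7 ± 1.82 CPM with IL1B and 11.6 ± 2.12 CPM with vehicle, both named after their values were seen (edgeR adjusted p = 0.728 and 0.711).

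Among 23 known regulators of class I genes and interferon receptor chains, 22 were tested, 11 rose and none fell by edgeR, and none was lower at an unadjusted p under 0.05 or by DESeq2 or limma-voom. Their median log2 fold change was 0.27, against -0.0087 over all tested genes, of which 7.76% were called higher and 3.25% lower. The NF-kB subunit genes Nfkb2, Relb and Nfkb1 rose 11.2-fold, 10.8-fold and 5.43-fold, and Irf1, an interferon-regulated factor that binds class I promoters, 6.86-fold, from the same fit. Nlrc5, the class I transactivator, was at 2.22 ± 0.346 CPM with IL1B and 2.11 ± 0.336 CPM with vehicle (edgeR adjusted p = 0.922, 95% interval of the log2 fold change -0.54 to 0.70), and was named after its values were seen. Ifnb1, an interferon gene, had no count in any library, where 3 counts would be 0.395 to 0.557 CPM.

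Of 29 other class I and class I-like symbols, 27 were in the table and 12 were tested, and none was called by edgeR in either direction. The shares over all tested genes were 7.76% higher and 3.25% lower. At an unadjusted edgeR p under 0.05, H2-Q9 and H2-M3 were higher and none lower, and neither DESeq2 nor limma-voom called any. H2-Q9 had a log2 difference of 1.28 (SE 0.43 and adjusted p = 0.0634 by edgeR). It passed without the second IL1B library (0.0293), without the fourth vehicle library (0.0207), without both second libraries (0.0053) or with column numbers as a replicate block (0.0188). It also passed with no low-count filter (edgeR adjusted p = 1.3e-07). In that fit the adjusted p-values of the called members shrank too, that of H2-Q6 from 1.3e-09 to 2.0e-46. The value of 1.3e-07 is therefore not read as stronger evidence, and DESeq2 gave H2-Q9 an adjusted p of 0.675. H2-M3, which presents formylated peptides, was at 3.95 ± 0.522 CPM with IL1B and 2.33 ± 0.570 CPM with vehicle (a log2 difference of 0.76, with SE 0.26 and edgeR adjusted p = 0.0742), and passed without the second vehicle library (0.0418). Hfe, an iron-regulating relative, and Raet1d, a ligand of the killer receptor NKG2D, had log2 differences of 0.14 and 0.40 (SE 0.15 and 0.36, edgeR adjusted p = 0.655 and 0.569). Only counts, medians and single genes are given for these lists, with no test of a list.

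**Figure D5:**
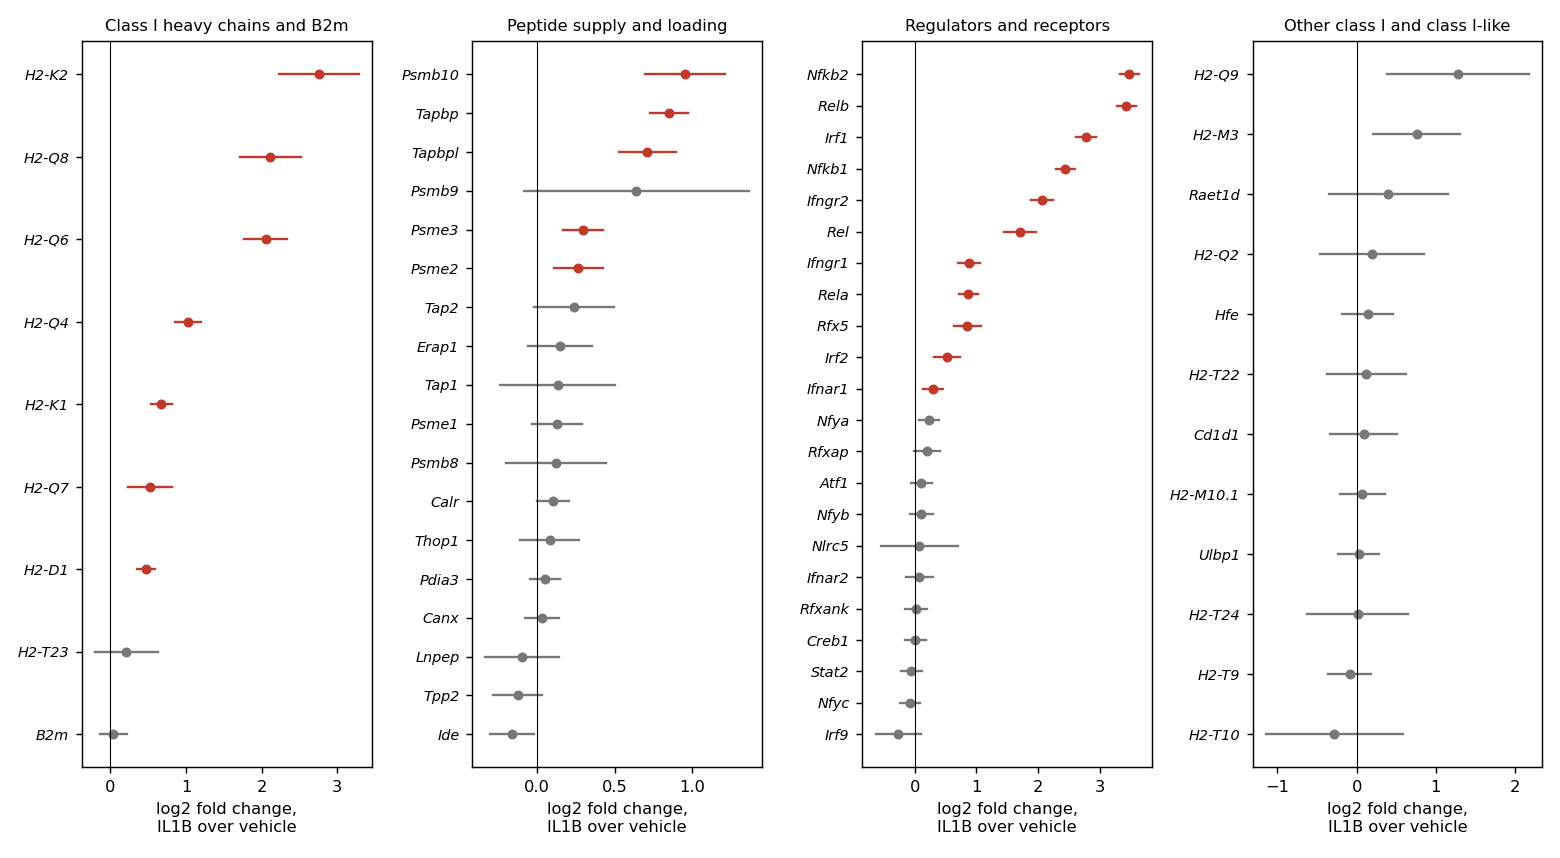
Log2 fold change of IL1B over vehicle (points) with 95% intervals (lines) for the tested genes of 4 groups, red where called higher. Class I heavy chains reach 2.75 in H2-K2, Psmb10, Tapbp and Tapbpl lead the loading genes, and no gene of the last group is called.

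Leukocytes carry much class I RNA, so their markers are given beside these results. Of 19 leukocyte markers 1 passed the filter. Their summed level was 7.14 to 7.59 CPM in IL1B libraries and 5.0 to 6.42 CPM in vehicle libraries. These sums did not overlap, with IL1B higher. Ptprc, the pan-leukocyte marker CD45, had 4, 4 and 1 counts in IL1B libraries, against 3, 0, 4 and 1 counts in vehicle libraries, and Tyrobp, Nkg7 and Klrd1 had none in any library. Of 14 beta-cell markers 13 were tested, 4 fell (Pdx1, Isl1, Mafa and Neurod1) and none rose, with summed levels of 37109 to 38402 CPM with IL1B and 34050 to 39452 CPM with vehicle. Among all tested genes 3.25% were called lower and 7.76% higher. The stromal, exocrine and other islet lists had 1 call between them, a fall of Irx2. RNA of the other islet list was abundant, with summed levels of 1146 to 1280 CPM with IL1B and 1247 to 1416.5 CPM with vehicle. Of its 5 tested genes, 2 were lower at an unadjusted edgeR p under 0.05. The stromal sums were 9.47 to 12.3 CPM with IL1B and 9.71 to 12.7 CPM with vehicle. The exocrine sums were 22.6 to 25.6 CPM with IL1B and 21.4 to 26.3 CPM with vehicle. Another 39 markers of these lists and of the leukocyte list stayed below the filter. Of these, 2 were higher and 2 lower with IL1B with no overlap between groups, and they were named after their values were seen. Among the 12480 tested genes, 2616 did not overlap, counting both directions, though those genes passed the filter and the 39 did not. Pecam1, an endothelial adhesion molecule, had 15, 17 and 9 counts in IL1B libraries, against 6, 5, 3 and 3 counts in vehicle libraries. Itgam, a myeloid integrin, had 2, 1 and 2 counts in IL1B libraries and none in vehicle libraries. Col3a1, a collagen gene, had no count in IL1B libraries and 1, 3, 2 and 2 counts in vehicle libraries. Ppy, a pancreatic hormone gene, had 0, 2 and 2 counts in IL1B libraries, against 13, 8, 10 and 2 counts in vehicle libraries. The Ppy counts meet at 2, and only scaling set the groups apart. The highest IL1B library was at 0.337 CPM and the lowest vehicle library at 0.371 CPM. The part of these cell types in the class I results was not tested. In bulk libraries a change in the share of cells that carry a transcript and a change in RNA per cell cannot be told apart.

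The transcripts whose profile over the 7 libraries was closest to H2-K1, by root mean square difference of centred log2 CPM among 10901 genes of at least 5 CPM, were Pacrgl (0.051), Bsdc1 (0.055) and Hmox1 (0.062), with log2 fold changes of 0.63, 0.74 and 0.69. Closest to H2-D1 were Mpp2 (0.046), Tubb3 (0.048) and Fzr1 (0.051), and closest to B2m were Gtpbp10, 2900064A13Rik and Gemin7 (0.043 each). The 3 genes nearest to each classical chain were called higher, and those nearest to B2m were not called. These calls largely follow from choosing the genes by likeness over the same 7 libraries. Likeness over so few libraries is a description, and nothing on shared function follows from it.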

How the data were processed

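The authors deposited raw counts, 1 table by gene symbol for 7 libraries of polyadenylated RNA. Per the submitters' processing notes the build was mm10 and the tools, named for the whole study without roles, include R 4.1.0, STAR and RSEM; the annotation, the strand setting and the handling of reads that fit several genes are not stated there. In R 4.3.3, edgeR 4.0.16 scaled the counts (TMM), removed low genes (filterByExpr) and compared IL1B with vehicle libraries by the quasi-likelihood F test with no covariate; the SE is the size of the log2 change divided by the root of F. Alternatives used DESeq2 1.42.0, limma 3.58.1 (voom), other scalings and filters, and libraries left out. The table numbers its IL1B columns 1, 2 and 3 and the labels 1, 3 and 4, so these columns were tied to the group only. Similarity used GENCODE M21 transcripts and blastn 2.17.0. The members and lists were chosen with earlier results of these data known. Genes named beyond the members were up to 4 with the smallest adjusted p in each list that is not a marker list, markers past the threshold, and the 3 most like H2-K1, H2-D1 and B2m; other names are marked or belong to the marker checks. Adgre1 was read under its older symbol Emr1. Protein identity was not computed, and 1 gene of the regulator list is not reported here. The fit was tested on simulated data. Intervals of fold changes include the spread between libraries, and floors of 3 counts cover counting error only.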

Additional observations from a re-analysis of the deposited data

Results flagged for a closer look

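Dixon's test over the 4 vehicle libraries was applied to 62 sets of values (the 9 members, their heavy chain sum and the tested pathway genes), where chance flags about 1 in 20, and 1 held a library far from the other 3. None of the 9 members was flagged. Lnpep, an aminopeptidase that trims peptides, was at 18.5 CPM in the second vehicle library, against 23.8 to 24.7 in the others.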

How the results depend on the processing

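Over 16 alternatives, 143 of 144 values of the 9 members had the sign of the reported value and 140 were on the same side of the threshold. H2-K1, H2-D1, H2-K2, H2-Q4, H2-Q6 and H2-Q8 passed in every alternative. Leaving out 1 library at a time gave log2 fold changes of 0.35 to 0.63 for H2-Q7 (edgeR adjusted p 0.0076 to 0.151) and -0.05 to 0.14 for B2m (adjusted p 0.338 to 0.997), and 252 to 589 genes lower over the whole table, against 406. Without both second libraries B2m passed at 0.20, 676 genes were lower, and 1 other pathway gene was lower (Ide). The numbers in the column names were tried as a replicate block: 794 genes were higher and 249 lower, with 7 members higher; the block ended the call of Psme2 (edgeR adjusted p = 0.0930) and H2-Q9 passed under it (0.0188). Deviations of libraries with the same number correlated at r of -0.02 to 0.14 over genes, and 1 of 3 IL1B libraries correlated best with its own number, so the block pairs libraries by number only. Increases made up 70.5% of calls with TMM, 62.6% with upper-quartile and 60.3% with total-count scaling; the other pathway genes gave 14 to 18 increases when 1 library was left out, against 16. Vehicle counts of 6 to 13 limit the fold of H2-K2, and 35 to 63 counts per library limit H2-T23.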

Other observations

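Class II genes, which present peptides to CD4 T cells and are normally limited to antigen-presenting cells, were near the floor. Of 11 class II symbols 1 passed the filter, Ciita, the class II transactivator, at 1.63 ± 0.656 CPM with IL1B and 1.74 ± 0.719 CPM with vehicle (log2 fold change -0.13, SE 0.40, edgeR adjusted p = 0.893). Cd74, the class II invariant chain, stayed below the filter with 11, 15 and 22 counts in IL1B libraries, against 0, 0, 2 and 3 counts in vehicle libraries, with no overlap, and was named after its values were seen. H2-Aa had 4, 0 and 0 counts in IL1B libraries, against 1, 2, 3 and 2 counts in vehicle libraries.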
